A study of Mus musculus with 15 samples.

Results

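This section describes 10 genes of interleukin-6 (IL-6) family signalling and of its feedback inhibitors in mouse liver during the formation and early regression of MYC-driven tumors. The 10 are Il6ra, Osmr, Lifr, Il6st and Il1r1, which encode receptor chains, Stat3 and Cebpd, which encode transcription factors, and Socs1, Socs2 and Socs3, which encode suppressors of cytokine signalling. They were chosen by name, as the genes whose symbols the deposited normalized matrix gives to 17 probes, and they are 10 of 21531 named genes on the array and 10 of 19335 genes tested. Of their 17 probes, 16 passed the filter on dim probes, and every gene kept at least 1.

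RNA from 15 FVB/N mouse tissue samples was hybridised to 1-colour Agilent whole-genome arrays. The 3 control livers carried only LAP-tTA, a doxycycline-repressed transactivator under a liver promoter active in hepatocytes. The other 3 groups, of 4 arrays each, carried both TRE-MYC and LAP-tTA, so that MYC is made when doxycycline is withdrawn. Chow with doxycycline at 200 mg/kg was given to all mice until past 8 weeks of age. The pre-tumor group had been off the drug for 4 to 5 weeks, and the tumor nodules came from mice off it for 8 to 9 weeks. Regression samples were tumors from mice off doxycycline for 8 to 9 weeks and then back on it for 72 hours. The time off doxycycline of the controls is not given in the labels, and nothing there says that the arrays of a group came from separate animals, so p-values measure the spread between these samples only.

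IL-6 binds its receptor chain and then the shared signal chain gp130, which activates JAK kinases and the transcription factor STAT3. In hepatocytes this drives the acute phase response, the secretion of plasma proteins such as serum amyloid A and fibrinogen, and IL-1 adds to it through NF-kB and C/EBP factors. SOCS3, made in response to STAT3, binds gp130 and shuts the signal off, which makes its transcript a common readout of recent signalling.

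Promoter windows, the 250 bases before each annotated start, were found in RefSeq (GRCm38.p6, the reference strain) for 8 of the 10 genes, in 10 windows. They were searched on both strands for TTCNNNGAA, the core of the element that STAT factors bind, and for CACGTG, the E-box that MYC binds. These letters do not overlap each other, and each motif reads the same on the opposite strand. Socs3 was the 1 gene of the 8 whose window held TTCNNNGAA, which is 1 of the 10 windows, against 7.02% of 32851 windows of all genes. Il6ra was the 1 gene whose window held CACGTG, again 1 of the 10 windows, against 6.02% of all windows. Both windows are shown because they carry the match, in capitals, with the last base next to the start. A match is a description of the letters and says nothing of binding here. With 10 windows, 1 match of each motif does not stand out from the shares of all windows. The Socs3 window lies at chr11:117969367-117969616 on the minus strand and its match begins 154 bases before the start. The Il6ra window lies at chr3:89913197-89913446 on the minus strand.
Socs3: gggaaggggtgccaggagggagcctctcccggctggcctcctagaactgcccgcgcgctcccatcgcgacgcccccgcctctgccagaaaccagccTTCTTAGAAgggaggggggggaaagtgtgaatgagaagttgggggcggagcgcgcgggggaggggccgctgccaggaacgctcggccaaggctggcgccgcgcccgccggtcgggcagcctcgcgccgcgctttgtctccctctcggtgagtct
Il6ra: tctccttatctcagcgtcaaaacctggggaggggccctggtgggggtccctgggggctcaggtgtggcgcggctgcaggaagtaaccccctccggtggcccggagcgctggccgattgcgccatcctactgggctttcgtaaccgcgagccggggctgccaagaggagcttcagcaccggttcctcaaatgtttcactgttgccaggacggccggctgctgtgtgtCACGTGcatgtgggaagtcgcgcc

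Levels are log2 signals relative to the 75th percentile of the array, so that 0 is the level of a probe at that percentile and a step of 1 is a doubling. Between 46.4% (tumor 3) and 90.8% (pre-tumor 4) of an array's spots were well above background. The 15 arrays lay on 4 slides, each with at most 1 array of a group. Myc probe A_52_P108346 rose in tumor against control by 5.16 and fell by 4.66 in regression against tumor, while A_51_P102096 moved the other way in regression against tumor (1.64) and another Myc probe did not pass in either. The labelled tissue was checked against 9 hepatocyte markers, all of which were above background in some array of every group. With 3 to 4 arrays a group, the number of arrays limits the precision.

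A gene was called changed when its adjusted p was under 0.05 (limma, Benjamini-Hochberg over all 19335 genes, two-sided). In tumor against control, 5 of the 10 genes fell and none rose, where 7% of all genes tested fell and 9.36% rose. In regression against tumor, 6 of 10 rose and none fell, where 8.36% of all genes rose and 8.46% fell. In regression against control, 3 of 10 were lower and none higher, where 3.31% of all genes were lower and 5.03% higher. In tumor against pre-tumor, 6 of 10 fell and none rose, where 9.1% of all genes fell and 10% rose. Groups did not overlap for 6 of the 10 genes in tumor against control (25.6% of all genes) and for 4 in tumor against pre-tumor (21.1%). They did not overlap for 6 genes when regression was set against tumor (23.8%), 5 when it was set against control (25.4%) and 1 in pre-tumor against control (2.84%). In pre-tumor against control none of the 10 passed, as none of all genes did (0%), and 505 genes (2.61%) had an unadjusted limma p under 0.05. The median log2 change of the 10 genes was -2.04 in tumor against control. It was 1.99 when regression was set against tumor and -0.15 when it was set against control, where the medians of all genes were -0.18, -0.13 and -0.25. Tumor against control and regression against tumor share the tumor arrays, so the fall and the rise are not independent measurements.

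**Figure D1:**
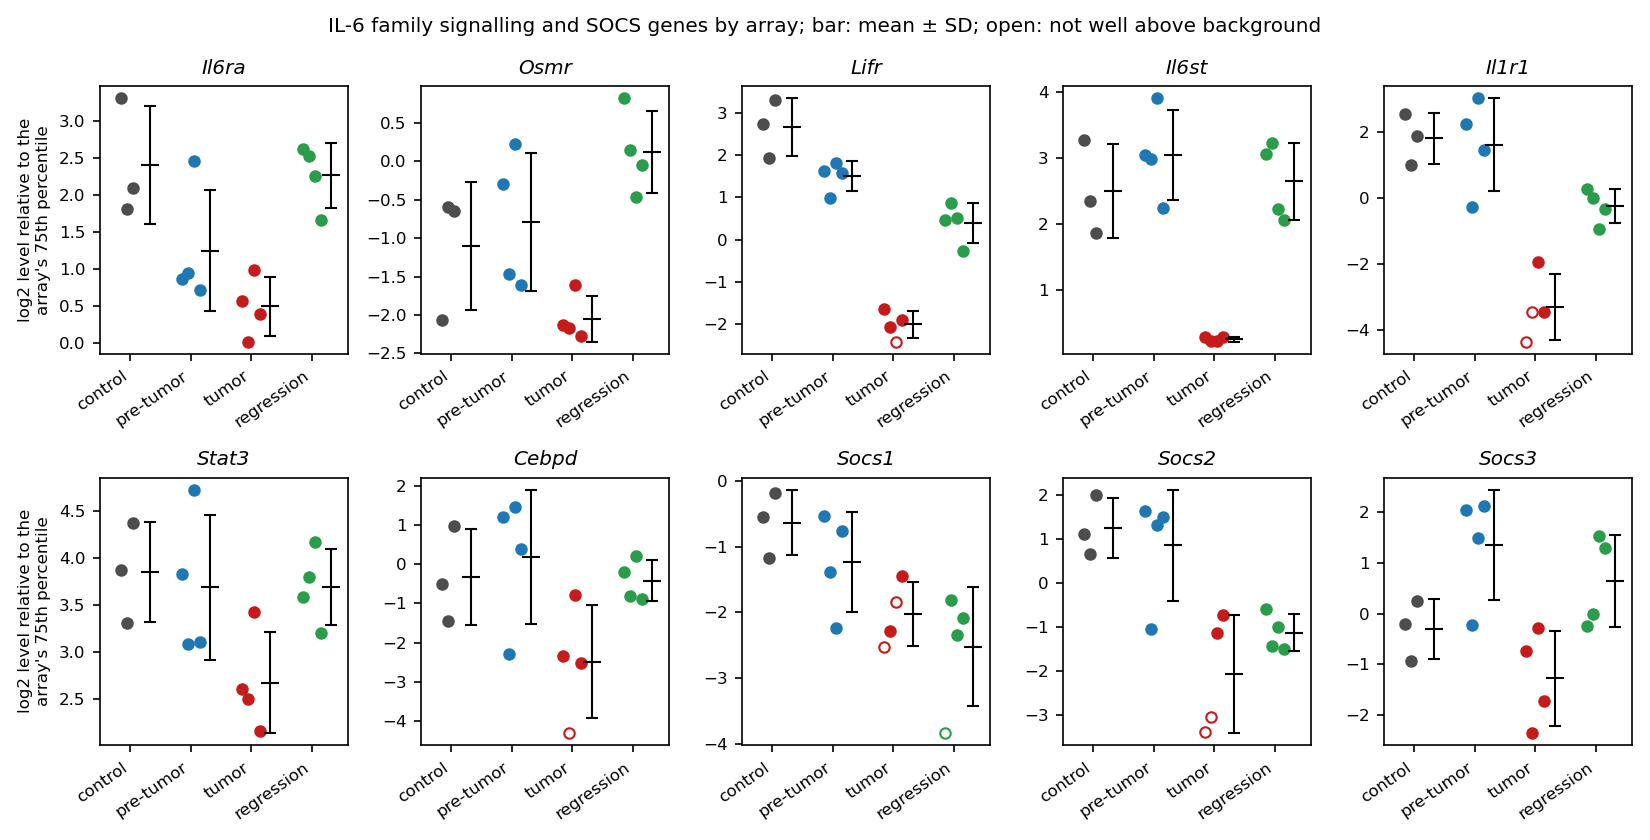
Log2 level relative to the array's 75th percentile (vertical axes) of the probe that stands for each of the 10 genes on 15 arrays, by group. Filled points are well above background, open points are not, and the bar beside each group is its mean ± SD. Il6st sits between 0.23 and 0.29 on all 4 tumor arrays and at 1.87 or higher on the other 11, while Socs2 stays at or below -0.61 on the regression arrays.

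Il6st, which encodes gp130, the signal chain shared by the whole family, was low in the tumors and within the control range after 72 hours back on doxycycline. Its log2 level was 3.28, 2.36 and 1.87 on the control arrays, and 3.04, 2.99, 3.91 and 2.25 on the pre-tumor arrays. On the tumor arrays it was 0.29, 0.23, 0.23 and 0.29, and on the regression arrays 3.07, 3.23, 2.24 and 2.07. Every tumor array was below every other array, and the remaining groups overlapped each other. Il6st fell 4.73-fold in tumor against control (log2 change -2.24 ± 0.44 SE, adjusted p = 0.00178) and rose 5.24-fold in regression against tumor (2.39 ± 0.40, adjusted p = 0.000791). Regression and control differed by 0.15, with a 95% interval of -0.78 to 1.07, so these arrays allow a difference of that size in either direction. The 4 tumor values had an SD of 0.035, against 0.71 in controls.

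Il6ra, the chain that binds IL-6 itself, fell in tumor and rose in regression. The control arrays read 3.32, 1.81 and 2.09, and the pre-tumor arrays 0.87, 0.94, 2.47 and 0.71. The tumor arrays read 0.57, 0.02, 0.99 and 0.39, and the regression arrays 2.63, 2.54, 2.26 and 1.66. Tumor lay below control and below regression with no overlap, whereas 3 pre-tumor arrays lay within the tumor range and 1 within the control range. Il6ra fell 3.77-fold in tumor against control (-1.92 ± 0.47, adjusted p = 0.0102) and rose 3.43-fold in regression (1.78 ± 0.44, adjusted p = 0.0104). Regression and control differed by -0.14 (95% interval -1.15 to 0.87). The second Il6ra probe gave -1.45 and 1.24, both past the threshold in the fit of single probes. The fall rested in part on control 1: without it the adjusted p was 0.0640, it was 0.0684 with each array centred on its median, and 0.0862 without the 4 arrays of highest spike-in signal, a setting chosen after the data were seen.

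Osmr, the chain that pairs with gp130 to receive oncostatin M, rose in regression against tumor. It read -2.07, -0.59 and -0.65 in controls, -0.29, -1.47, 0.23 and -1.61 in pre-tumor livers, and -2.13, -2.17, -1.60 and -2.27 in tumors. The regression arrays read 0.82, 0.15, -0.46 and -0.05 and lay above all control and all tumor arrays, while overlapping pre-tumor. Osmr rose 4.48-fold in regression against tumor (2.16 ± 0.46, adjusted p = 0.00404), and its second probe gave 2.07. Neither the tumor value against control (-0.94 ± 0.50, adjusted p = 0.231) nor the regression value against control (1.22 ± 0.50, adjusted p = 0.144) passed the test.

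Lifr, the receptor chain for leukaemia inhibitory factor, had the smallest adjusted p of the 10 genes in tumor against control, and the size of its fall depended on the probe. The probe that stands for the gene, A_52_P579352, read 2.74, 1.93 and 3.31 in controls and 1.63, 1.00, 1.80 and 1.58 in pre-tumor livers. It read -1.64, -2.07, -2.41 and -1.89 in tumors, 1 of them not well above background, and 0.46, 0.87, 0.52 and -0.27 in regression. The 4 groups did not overlap at all on this probe: control was highest, then pre-tumor, then regression, then tumor. Lifr on this probe fell 25.3-fold in tumor against control (-4.66 ± 0.39, adjusted p = 7.15e-07), rose 5.27-fold in regression against tumor (2.40 ± 0.36, adjusted p = 0.000325) and stayed 4.80-fold below control in regression (-2.26 ± 0.39, adjusted p = 0.00131). The step from control to pre-tumor was -1.16 ± 0.39 (adjusted p = 1.00). It did not pass.

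The other 3 Lifr probes read the same gene with smaller changes. The probe positions are those of the authors' deposited table, whose genome build is not given, and all lie on the plus strand of chromosome 15. A_52_P579352 lies at chr15:7131976-7132782, A_52_P192699 at chr15:7132889-7132948, A_52_P297113 at chr15:7138274-7138333 and A_51_P113182 at chr15:7138365-7138424. The 3 downstream probes fell by 1.36 to 1.66 in tumor against control, all past the threshold in the fit of single probes, and in regression against control they stood at -0.21 to -0.31 with adjusted p from 0.681 to 0.806. The first probe minus the mean of the other 3 was 2.05 ± 0.47 (SD, n = 3) in control, 1.10 ± 0.75 in pre-tumor, -1.11 ± 0.59 in tumor and 0.04 ± 0.34 in regression (n = 4 each). This gap fell by 2.21 from pre-tumor to tumor (exact two-sided permutation test, p = 0.0286, the smallest that 4 against 4 arrays allow, adjusted p = 0.0762 over 8 such tests). Against control the gap fell by 3.17 in tumor and by 2.02 in regression, each with an exact permutation p of 0.0571, the smallest that 4 against 3 arrays allow (adjusted p = 0.0914). In regression against control 1 of the 4 probes was thus called, and with the probes averaged Lifr stood at -0.75 (adjusted p = 0.176). Why the probes differ was not tested.

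**Figure D2:**
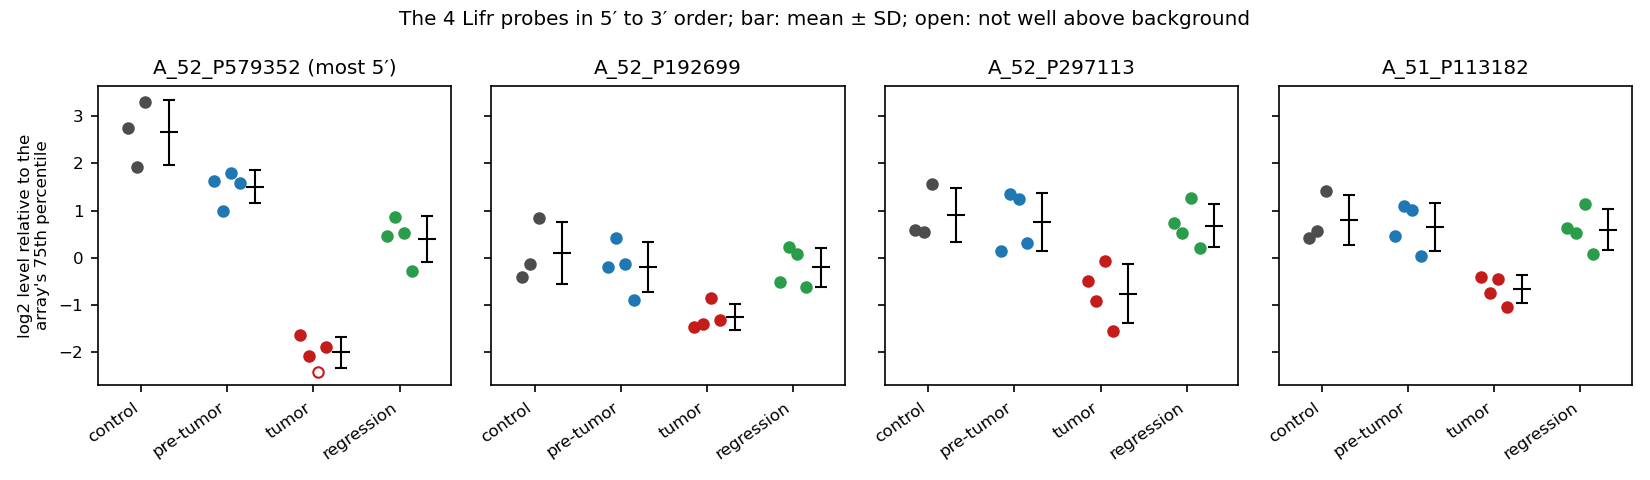
Log2 level relative to the array's 75th percentile of the 4 Lifr probes (panels, in 5′ to 3′ order along the gene) by group, with the mean ± SD beside the points. The most 5′ probe falls from 1.93 or higher in control to -1.64 or lower in tumor, and the 3 others change less, with regression overlapping control on each of them.

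Il1r1, the signalling receptor for IL-1, fell in tumor and rose in regression. It read 2.53, 0.99 and 1.86 in controls, 2.23, -0.28, 3.01 and 1.46 in pre-tumor livers, -4.34, -3.45, -1.92 and -3.46 in tumors and 0.27, 0.01, -0.93 and -0.33 in regression. The tumors lay below all other arrays and were well above background on 2 of 4, and regression lay between tumor and control without overlapping either. The fitted log2 change was -5.08 ± 0.69 in tumor against control (adjusted p = 7.65e-05) and 3.04 ± 0.64 in regression against tumor (adjusted p = 0.00363), both resting on 2 tumor arrays that were not well above background. Regression against control was -2.04 ± 0.69 and did not pass (adjusted p = 0.0807), but passed with normexp (0.0433), in the authors' deposited table (0.0223), with only the 2 groups fitted (0.0304) and without pre-tumor 2 (0.0371). Size and call depended on how the signals were processed. With normexp background correction followed by quantile scaling the fall was -1.77 and still passed, and the rise was 0.63 and did not (adjusted p = 0.214).

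Among 10 receptors and receptor antagonists of the IL-6 and IL-1 families, 6 fell and none rose in tumor against control. There 7% of all genes fell and 9.36% rose. In regression against tumor 8 rose and none fell, where 8.36% of all genes rose and 8.46% fell. The medians of the 10 were -2.08 and 2.31. The 10 include the 5 receptors above. Il11ra1, the IL-11 receptor chain, fell by 1.25 (adjusted p = 0.0420) and rose by 2.24 in regression (adjusted p = 0.000666). Il1rap, the accessory chain that IL-1 receptors need, was not well above background on any tumor array and was at least 13.2-fold lower in tumor than in control and at least 1.41-fold higher in regression than in tumor. Il1rn, which encodes the IL-1 receptor antagonist and is itself an acute phase protein, rose by 3.49 in regression (adjusted p = 0.0284).

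Stat3, the transcription factor that the receptors activate, had lower values in tumor that did not pass the test. It read 3.87, 3.31 and 4.37 in controls, 3.83, 3.09, 4.73 and 3.11 in pre-tumor livers, 2.61, 2.50, 3.43 and 2.17 in tumors and 3.59, 3.80, 4.17 and 3.21 in regression. The 4 tumor arrays included the 3 lowest values, and tumor 3 lay within the range of every other group. The tumor change against control was -1.17 ± 0.45 (adjusted p = 0.0915) and the regression change against tumor 1.01 ± 0.41 (adjusted p = 0.119), and neither passed. Both passed with normexp (-1.04 and 0.97), with quantile scaling alone (-1.21 and 1.14) and in the authors' deposited table (-1.15 and 1.10). The second Stat3 probe gave -0.86 and 0.37, which did not pass. These are transcript levels and say nothing of STAT3 phosphorylation.

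Cebpd, a C/EBP factor that is induced in the acute phase, varied widely within groups. It read -0.50, -1.45 and 0.98 in controls, 1.19, -2.29, 1.45 and 0.39 in pre-tumor livers, -2.33, -4.30, -0.78 and -2.52 in tumors and -0.20, -0.81, 0.22 and -0.88 in regression. Tumor values overlapped those of every other group, with tumor 3 the highest of the tumors. Cebpd fell 6.37-fold in tumor against pre-tumor (-2.67 ± 0.81, adjusted p = 0.0290), a call that held under 19 of 27 alternatives. The lowest tumor value, on tumor 2, was not well above background, and the fall was -0.76 with normexp and -1.42 in the authors' deposited table. It was lost without pre-tumor 1, 3 or 4, without tumor 1 or 2, with only the 2 groups fitted, without the 4 arrays of highest spike-in signal, and with slide as a block (adjusted p = 0.0636). Against control the tumor value was -2.16 ± 0.88 (adjusted p = 0.111), and regression against tumor was 2.06 ± 0.81 (adjusted p = 0.103).

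Of 11 JAK and STAT genes, 1 fell in tumor against control, where 7% of all genes fell. In regression against tumor 1 rose, where 8.36% of all genes rose. These were Stat2, which carries interferon signals (-1.58, adjusted p = 0.0239, above background on 1 of 4 tumor arrays), and Stat6, which carries IL-4 signals (1.35, adjusted p = 0.0169). Of 11 C/EBP and NF-kB genes, none passed in tumor against control, and 1, Nfkb1, rose in regression (1.63, adjusted p = 0.0369). Against pre-tumor, 7 of these 11 fell in tumor, where 9.1% of all genes did. They were Cebpd, Nfkb1, Nfkbia, Nfkbiz, Rela, Relb and Bcl3, by log2 changes of -1.28 (Rela) to -2.75 (Nfkbiz). The fall was not particular to this list. In the same comparison 4 of the 11 JAK and STAT genes fell, as did 5 of the 10 receptors. So did 2 of 9 cytokines and 6 of 9 genes of the growth hormone axis, and no gene of these lists rose.

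Socs3 was the 1 suppressor of the 3 that rose in regression. It read -0.20, -0.94 and 0.24 in controls, 2.04, -0.22, 1.49 and 2.13 in pre-tumor livers, -0.74, -2.36, -0.28 and -1.73 in tumors and -0.25, 0.00, 1.54 and 1.29 in regression. The highest values came from 3 of 4 pre-tumor arrays and 2 regression arrays, tumor overlapped control, and the lowest regression array (-0.25) lay just above the highest tumor array (-0.28). Socs3 fell 6.21-fold in tumor against pre-tumor (-2.63 ± 0.60, adjusted p = 0.00458) and rose 3.79-fold in regression against tumor (1.92 ± 0.60, adjusted p = 0.0359). The rise was lost without tumor 2, tumor 4, regression 3 or regression 4 (adjusted p from 0.0910 to 0.122), without the 4 arrays of highest spike-in signal, with slide as a block (0.0820), with normexp (0.120) and in the authors' deposited table (0.0575). The fall was lost without those 4 arrays (0.189). Pre-tumor against control was 1.66 (95% interval 0.29 to 3.02), with an adjusted p of 1.00.

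Socs2, best known as the feedback inhibitor of growth hormone and STAT5, fell in tumors and was still below control after 72 hours back on doxycycline. It read 1.12, 0.65 and 2.00 in controls, 1.63, -1.04, 1.31 and 1.49 in pre-tumor livers, -3.39, -3.06, -1.14 and -0.73 in tumors and -0.61, -1.44, -1.00 and -1.51 in regression. All tumor and regression arrays lay below all controls, the 2 sets overlapped each other, and 2 of 4 tumor arrays were well above background. The fitted log2 change was -3.34 ± 0.71 in tumor against control (adjusted p = 0.00348) and -2.93 in tumor against pre-tumor (adjusted p = 0.00415). With normexp the first was -1.12, still past the threshold. Regression against tumor was 0.94 ± 0.65 (adjusted p = 0.435), with a 95% interval of -0.45 to 2.33. Regression against control was -2.39 ± 0.71 (adjusted p = 0.0478), and this call held under 13 of 27 alternatives. It was lost without any 1 control or regression array (adjusted p from 0.0610 to 0.167) and with slide as a block (0.125). It was also lost without pre-tumor 1, pre-tumor 3 or tumor 2 (0.0511 to 0.0560), which enter only through the shared spread.

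Socs1, an inhibitor of JAK kinases that interferon also induces, was below control in regression. It read -0.54, -1.17 and -0.18 in controls, -0.53, -1.39, -2.24 and -0.75 in pre-tumor livers, -2.53, -2.28, -1.84 and -1.44 in tumors and -3.84, -1.82, -2.34 and -2.08 in regression. Tumor and regression overlapped each other and lay below all controls, with 2 of 4 tumor arrays and 3 of 4 regression arrays well above background. Regression was 3.71-fold below control (-1.89 ± 0.51, adjusted p = 0.0326, held under 20 of 27 alternatives), and tumor against control did not pass (-1.39 ± 0.51, adjusted p = 0.0803). Regression against tumor was -0.50 ± 0.48 (adjusted p = 0.619). The call against control was lost without control 1, control 3, regression 1 or regression 3 (adjusted p from 0.0542 to 0.124) and with slide as a block (0.0700). Its size was -0.35 with normexp and -0.68 in the authors' deposited table, both past the threshold.

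Differences between the suppressors were tested array by array, in pairs chosen after their values were seen. Socs3 minus Socs1 rose by 2.42 from tumor to regression (exact two-sided permutation test, p = 0.0286, the smallest possible, adjusted p = 0.0762 over the same 8 tests). Socs3 minus Socs2 rose by 0.98 (exact permutation p = 0.343), Il6st minus Socs2 by 1.45 (exact permutation p = 0.200) and Osmr minus Socs2 by 1.22 (exact permutation p = 0.171). None passed after adjustment, so these arrays do not show that Socs2 returned less than Il6st, Osmr or Socs3. Of 16 SOCS, PIAS and phosphatase genes, 1 fell in tumor against control (Socs2), where 7% of all genes fell. In regression against tumor 1 rose (Socs3), where 8.36% of all genes rose. In tumor against pre-tumor 3 of the 16 fell and 1 rose, where 9.1% of all genes fell and 10% rose. In regression against control 2 of the 16 were lower, where 3.31% of all genes were.

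**Figure D3:**
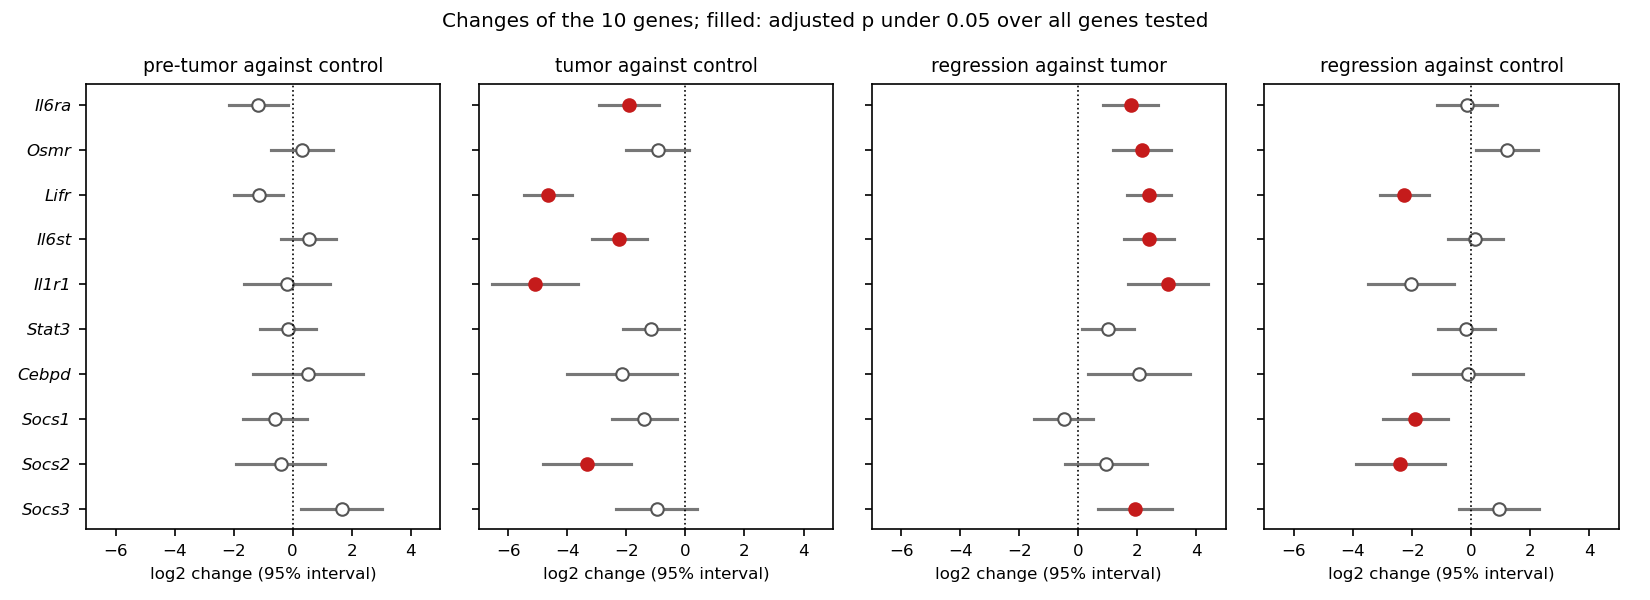
Log2 change (point) with its 95% interval (line) of the 10 genes in 4 comparisons, with filled points at adjusted p under 0.05 (limma, over all genes tested). The 5 genes filled in tumor against control lie between -1.92 and -5.08, the 6 filled in regression against tumor between 1.78 and 3.04, and Lifr, Socs1 and Socs2 are filled below 0 in regression against control.

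Il6, the ligand that names the family, was well above background on 1 of 15 arrays, a pre-tumor liver, and was not tested. Of the other defining cytokines, Il1b was well above background on 15 arrays, Osm on 12, Tnf on 11 and Il11 on 10. Of 9 cytokines tested, none passed in tumor against control, and Il1a rose in regression (1.30, adjusted p = 0.0140), where 8.36% of all genes rose.

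The acute phase genes, the main output of this pathway in liver, fell in tumor and rose in regression. Of 36 tested, 28 fell and 2 rose in tumor against control, where 7% of all genes fell and 9.36% rose. In regression against tumor 26 rose and 1 fell, where 8.36% of all genes rose and 8.46% fell. The median log2 changes of the 36 were -3.51 and 2.89. The largest falls by adjusted p were those of Serpina3m (-7.46), Saa3 (-9.12), Orm2 (-6.97), Saa1 (-6.25), Saa4 (-4.95) and Orm1 (-8.40), all secreted plasma proteins. The 2 that rose were A2m, a protease inhibitor, and Tfrc, the transferrin receptor. In regression against control 9 of 36 were still lower and 2 higher, with a median of -0.57. Of all genes 3.31% were lower and 5.03% higher there.

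On single arrays the median of the 36 genes, each centred on its own mean, was 1.30, 0.86 and 1.73 in controls and 1.10, 0.59, 1.97 and 0.18 in pre-tumor livers. It was -2.66, -2.75, -1.14 and -3.12 in tumors, and 0.38, 0.42, 0.68 and 0.45 in regression. Tumor arrays lay below all others. Tumor 3 had the highest acute phase median of the tumors and the lowest share of spots above background of the 15 arrays. On the probe that stands for each gene, it had the highest tumor values of Il1r1, Stat3, Cebpd, Socs3, Il6ra and Osmr. It did not have those of Il6st, Lifr, Socs1 or Socs2. For Stat3 and Lifr this depended on the probe. Tumor 3 was the lowest tumor array on the second Stat3 probe (-1.29). It was the highest on Lifr probes A_52_P192699 (-0.84) and A_52_P297113 (-0.07). Among pre-tumor livers, pre-tumor 3 had the highest acute phase median. Read by the same probes, it also had the highest Il6st, Il6ra, Il1r1, Stat3, Osmr, Lifr and Cebpd. For Stat3 and Lifr this too depended on the probe. Pre-tumor 3 was the lowest pre-tumor array on the second Stat3 probe (-0.98), and pre-tumor 2 was the highest on the other Lifr probes. The suppressors had another order: Socs3 was highest in pre-tumor 4, Socs1 and Socs2 were highest in pre-tumor 1, and pre-tumor 3 had the lowest Socs1 of the pre-tumor arrays. Pre-tumor 1 and pre-tumor 4 were among the 4 arrays of highest spike-in signal. Their shares of spots above background, 79.8% and 90.8%, exceeded those of pre-tumor 2 (69.6%) and pre-tumor 3 (54.2%). The part of these array differences in the order was not tested.

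**Figure D4:**
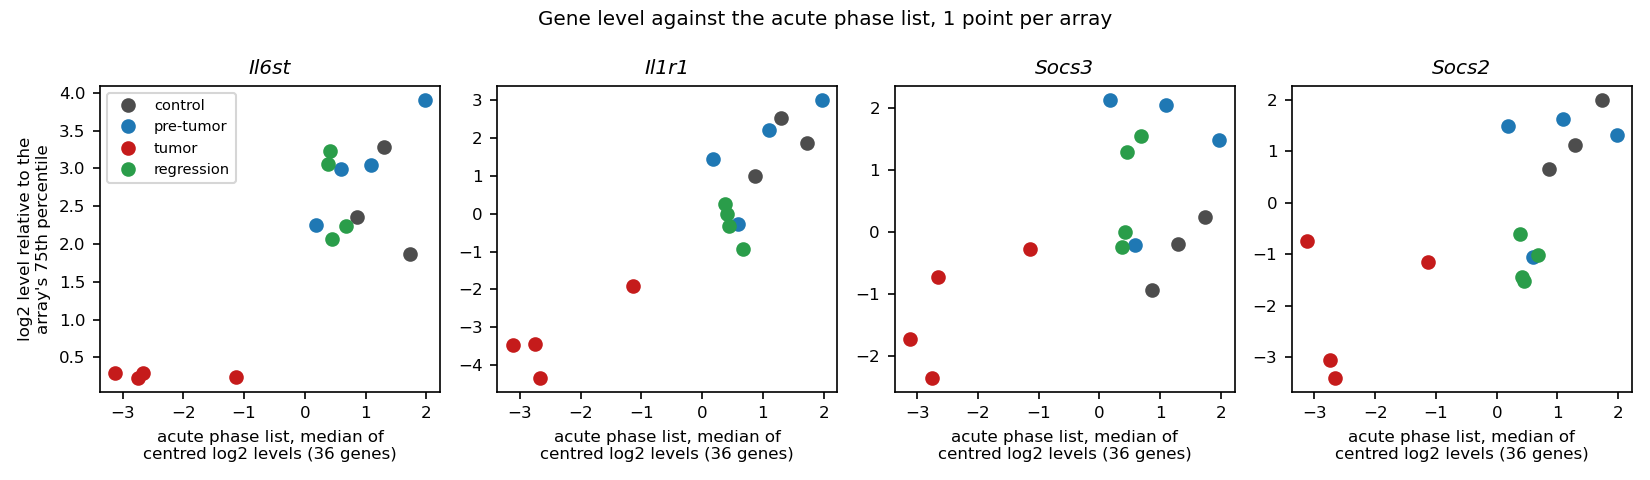
Log2 level of Il6st, Il1r1, Socs3 and Socs2 (vertical axes, relative to the array's 75th percentile) against the median of 36 acute phase genes on the same array (horizontal axes, each gene centred on its mean over 15 arrays), 1 point per array. Tumor arrays lie at -1.14 or lower on the horizontal axes and the other groups at 0.18 or higher, and Socs2 in regression overlaps its tumor range at an acute phase median of 0.38 or higher.

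Proteins that an acute phase response lowers moved with those it raises. Of 7 such genes 6 fell in tumor against control, where 7% of all genes fell and 9.36% rose. All 7 rose in regression against tumor, where 8.36% of all genes rose and 8.46% fell. The medians of the 7 were -1.60 and 2.30. Alb, serum albumin, fell by 2.34 and rose by 2.61. Of 12 other textbook STAT3 targets 1 passed in tumor against control, Birc5, a cell division gene that rose by 5.94, and in regression Bcl2l1, a survival gene, rose by 2.09 while Birc5 fell by 4.53.

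Socs2 belongs to the growth hormone axis as well. Of 9 genes of that axis, 4 fell and 1 rose in tumor against control, where 7% of all genes fell and 9.36% rose. Igf1, the growth factor that growth hormone induces, fell by 3.62 (adjusted p = 1.54e-05), Ghr, the growth hormone receptor, fell by 2.85 (adjusted p = 0.000420) and Igfals fell by 2.77, while Igfbp3 rose by 1.49. In regression Igf1 rose by 2.81 and Ghr by 1.99.

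Markers of liver cell types moved in the same comparisons. Of 9 hepatocyte markers 8 fell in tumor against control, where 7% of all genes fell, and 5 rose in regression against tumor. Their summed level ran from 1496 to 1966 in controls, 203 to 647 in tumors and 527 to 2140 in regression, in units of the array's 75th percentile. Of 10 macrophage markers 7 rose in regression against tumor, where 8.36% of all genes rose. Their summed level was 45.4 to 75.7 in tumors and 175 to 350 in regression. So rose 6 of 8 stellate cell and fibroblast markers (17.1 to 25.6 and 50.7 to 175) and 5 of 8 endothelial markers (3.76 to 4.88 and 8.27 to 15.4). Also higher were 4 of 6 T and NK cell markers (1.41 to 1.82 and 4.45 to 9.13), 3 of 4 erythroid markers and 1 of 5 bile duct markers. In tumor against control 3 macrophage markers rose and 2 fell, and 3 stellate cell and fibroblast markers rose and 1 fell. In regression against control 7 macrophage markers were higher and 1 lower, with a summed level of 23.2 to 46.4 in controls. Of the 9 hepatocyte markers 4 were still lower there and none higher, with a median of -0.87. Higher there were 4 stellate cell and fibroblast, 4 T and NK cell and 1 bile duct marker. Of the endothelial markers 3 were higher and 1 lower. Of all genes 3.31% were lower and 5.03% higher in that comparison. Of 6 neutrophil markers and 5 B and plasma cell markers none passed in tumor against control or in regression against tumor. S100a8, a neutrophil marker, was not above background on any tumor array. In these bulk samples fewer cells of a type and less RNA per cell cannot be told apart, and the part of these cells in the changes of the 10 genes was not tested.

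Within single slides, where 1 tumor array could be set against 1 control array on 3 slides, 9 of the 10 genes were lower in tumor on all 3, and Osmr was higher on 1. The differences ran from -2.33 to -1.42 for Il6ra, -5.37 to -3.82 for Lifr, -3.05 to -1.65 for Il6st, -5.31 to -4.45 for Il1r1 and -5.05 to -1.38 for Socs2. Regression was above tumor on 4 of 4 slides for Il6ra, Osmr, Lifr, Il6st, Il1r1 and Socs3. Stat3 and Cebpd were higher on 3 of 4, Socs2 on 2 and Socs1 on 1. The share of all genes with the same sign on every slide was not counted, so these counts have no baseline. They also use the arrays of the main fit and are not separate evidence.

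With normexp at an offset of 50, followed by quantile scaling, the same falls were smaller. They were -2.11 for Lifr, -1.77 for Il1r1, -1.49 for Il6st, -1.29 for Il6ra and -1.12 for Socs2, all past the threshold. In the authors' deposited table these falls were -3.23, -2.96, -1.97, -1.66 and -1.99, in the same order. The rises in regression against tumor with normexp were 1.65 for Il6st, 1.10 for Il6ra, 0.67 for Lifr and 0.56 for Osmr, all past the threshold. With arrays centred on their median, the median change of all genes in tumor against control was 0.14 in place of -0.18, with 1960 genes higher and 896 lower in place of 1809 and 1353.

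By root mean square difference of centred log2 levels over the 15 arrays, among 16458 named genes, the 3 genes most like Il6st were Mst1 (0.33), Abcc3 and H2-T23. Those most like Socs3 were Ier3 (0.60), Nfkbia and Zfp36, and those most like Socs2 were Fpr1 (0.53), Tlr2 and Nfkbie. Stat3 was nearest to Wwp1 (0.25), Lipc and Fam234a. Il6ra was nearest to Rab7 (0.46), Osmr to Rasgef1b (0.47), Lifr to Abhd3 (0.58), Il1r1 to Amy1 (0.61) and Cebpd to Ell2 (0.68). The measure is smaller for genes that vary little, so it does not rank these genes against each other.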

How the data were processed

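RNA was amplified, labelled with Cy3 and hybridised to Agilent 4x44K arrays, per the labels' protocols. The deposited intensity values are the scanner's processed signals (Feature Extraction 10.5.1.1, mm9, per the file headers), 1 file per array. The authors also deposited a table of log2 values, whose normalization and build are not given in the sources used here. It served for symbols, probe positions and as an alternative.

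The main values were log2 processed signals minus the 75th percentile of the array. Spots called outliers were left out (0.452% of gene values) and spots of a probe averaged. A probe was kept when well above background on at least 3 of 15 arrays, and a gene was read by its kept probe of highest mean. Symbols were updated through Entrez ID. Limma 3.58.1 in R 4.3.3 was fitted to the 4 groups (11 residual degrees of freedom, 5 comparisons), with Benjamini-Hochberg adjustment over 19335 genes, and was tested on simulated data. A fold bound divides the brighter group's mean by, for each dim array, the higher of its lowest signal above background and the probe's own. Alternatives were normexp followed by quantile scaling (named normexp in this text), quantile scaling alone, median scaling and the deposited table. Normexp used the median signal, as the mean signal is not among the columns used here, with an offset of 50. Further alternatives were 2 other filters, averaged probes, slide and replicate blocks, a fit of the compared groups only, another variance model and leaving out each array.

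The 10 genes, the gene lists, cell type markers and tests were chosen with earlier results of these data known. Named are the 10 genes, the cytokine, receptor, JAK, STAT, SOCS and C/EBP list genes called in tumor against control or regression against tumor, and up to 6 genes by adjusted p from the other lists. The exceptions, named after their values were seen, are A2m and Tfrc, and the C/EBP and NF-kB genes called against pre-tumor. Lif, Cebpe and Serpina1a had no probe of that symbol in the table used. The gene most like Socs1 is not reported here.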

Additional observations from a re-analysis of the deposited data

Results flagged for a closer look

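In 30 sets of 4 arrays (10 genes in 3 groups), 2 held an array far from the other 3. Chance flags about 1 in 20 sets. Il6ra on pre-tumor 3 read 2.47, where the next highest pre-tumor array read 0.94. Socs2 on pre-tumor 2 read -1.04, where the next lowest pre-tumor array read 1.31. The Socs2 call in regression against control held without pre-tumor 2, the array flagged for Socs2. That call was lost without pre-tumor 3, the array flagged for Il6ra (limma, adjusted p = 0.0513).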

How the results depend on the processing

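Of 50 changes (10 genes in 5 comparisons), 20 passed, all 20 kept their sign under the 27 alternatives, and 12 passed under every one. Of the 30 that did not pass, 22 passed under no alternative. Each of the 30 has 1 value per alternative, and 28 of these values changed sign without passing, at -0.19 to 0.55. All 28 belonged to pre-tumor against control or to regression against control, several of them to the same gene. The count of the 10 genes called in regression against control was 3, and it was 1 with slide as a block, 1 without the 4 arrays of highest spike-in signal, and 1 to 4 when single arrays were left out (1 without control 1, control 3, regression 1 or regression 3). The counts with single arrays left out were 4 to 7 in tumor against control, 5 to 7 in tumor against pre-tumor, 5 to 7 in regression against tumor and 0 in pre-tumor against control. The replicate block raised the count in tumor against control from 5 to 8, adding Stat3, Cebpd and Socs1. Arrays with the same replicate number did not all deviate together (correlation -0.46 to 0.61, median 0.13, over 0.1 in 11 of 21 pairs, against a median of -0.03 and 17 of 63 pairs with different numbers), and the labels name no shared litter or day, so the numbers are not taken to pair the samples. Tests of all genes in pre-tumor against control gave 11 calls with normexp (6 higher, 5 lower) and 3 with the deposited table (1 higher, 2 lower). The causes were not tested. Dim signal limits Lifr, Il1r1, Cebpd and Socs2 in tumor and Socs1 in tumor and regression, where 1 or 2 arrays were not well above background.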
